A study of Saccharomyces cerevisiae with 12 samples.

Results

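The genes of budding yeast chromosome XII were examined in 12 RNA-seq libraries of a study of Taf14. Members were all rows of the deposited count table whose systematic name begins with YLL, for the left arm, or YLR, for the right arm. There were 586 such rows, 71 on the left and 515 on the right, of 6692 rows in all, and 6078 rows belonged to the other nuclear chromosomes. Of the 586, 519 matched a gene annotated on chromosome XII and 67 matched none. After removal of rows with too few counts 500 could be tested, 58 on the left arm and 442 on the right. The 86 others held few reads, with 39 at 0 counts in every library and at most 89 counts over all libraries together in the remaining 47.

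The 4 groups had 3 libraries each. Wild type was strain BY4741 with the plasmid pRS313-HA3-SSN6. The deletion strain lacked taf14 and carried that same plasmid. The TAF14 strain was the deletion strain with pRS313-TAF14-HA3-SSN6, and the W81A strain was the deletion strain with pRS313-taf14W81A-HA3-SSN6, in which a tryptophan of Taf14 is replaced by alanine. HA3-SSN6 was thus named in the plasmid of all 4 groups, wild type included. Nothing in the labels tells whether the 3 libraries of a group came from different cultures or transformants, and the p-values therefore reflect a spread that may be technical.

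Taf14 is a small protein shared by several transcription and chromatin complexes, among them the general factors TFIID and TFIIF, and the aromatic pocket of its YEATS domain, which includes the replaced tryptophan, holds acylated histone lysines. Chromosome XII is an ordinary chromosome in its gene content, with housekeeping genes spread over both arms, and it carries the only array of ribosomal DNA in the budding yeast genome, which forms the nucleolus. Many of its ribosomal protein genes have a near-identical partner on another chromosome, a remnant of an ancient genome duplication, and such pairs let a copy on chromosome XII be set against its partner in the same library.

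Sequences that the results turn on were read from RefSeq's R64 assembly, the genome build called sacCer3. The centromere separates the arms that are compared below. CEN12 lies at chrXII:150828-150947 on the minus strand and is shown 5′ to 3′ with its flanking protein-binding elements, CDEI of 10 bases and CDEIII of 25 bases, in capitals. Between them lies CDEII, of 85 bases, of which 94.1% are A or T against 61.5% over the chromosome.
CEN12: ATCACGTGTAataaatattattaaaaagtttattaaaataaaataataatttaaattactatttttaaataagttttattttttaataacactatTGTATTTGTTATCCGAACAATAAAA
RPL8B on chromosome XII and RPL8A on chromosome VIII encode the same ribosomal protein, and in the deletion strain theirs was the pair furthest apart of those compared. Shown is the 120-base stretch of coding sequence with the most differences, bases 325 to 444 from the start codon, with the differing bases in capitals. The coding sequences of 771 bases differ at 38 bases, are 95.1% identical and share runs of up to 91 bases without a difference, so that not every read can be assigned to 1 of them.
RPL8B, chrXII:48186-48305, minus strand: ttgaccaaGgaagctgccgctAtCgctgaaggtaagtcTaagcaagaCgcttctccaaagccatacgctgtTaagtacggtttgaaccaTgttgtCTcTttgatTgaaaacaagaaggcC
RPL8A, chrVIII:35582-35701, minus strand: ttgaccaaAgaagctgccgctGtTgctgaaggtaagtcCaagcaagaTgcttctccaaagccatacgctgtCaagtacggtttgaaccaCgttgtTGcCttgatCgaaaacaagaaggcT
Upstream sequence is shown for 2 genes that were lower in the deletion strain, against the trend of their chromosome there, and also in the W81A strain, as 200 bases that begin 300 bases before the start codon. SST2 encodes the RGS protein that turns off pheromone signalling. The capitals mark TGAAACA, the pheromone response element that Ste12 binds. It was searched on both strands in the same window of 5985 protein-coding genes and was found in 4.93% of all promoters and in 4.82% of those on chromosome XII.
SST2 promoter, chrXII:1041467-1041666, minus strand: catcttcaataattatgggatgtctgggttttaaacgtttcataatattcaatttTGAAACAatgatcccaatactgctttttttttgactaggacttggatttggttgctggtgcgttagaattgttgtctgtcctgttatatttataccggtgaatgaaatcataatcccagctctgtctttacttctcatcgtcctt
ZRT2 encodes the low-affinity zinc transporter of the plasma membrane. The capitals mark ACC and GGT separated by any 5 bases, with those bases included, the core of the zinc-responsive element that Zap1 binds. This pattern reads the same on both strands and was found in 1.55% of all promoters and 1.35% of those on chromosome XII, with 2 matches upstream of ZRT2 that begin 262 and 112 bases before the start codon.
ZRT2 promoter, chrXII:404163-404362, minus strand: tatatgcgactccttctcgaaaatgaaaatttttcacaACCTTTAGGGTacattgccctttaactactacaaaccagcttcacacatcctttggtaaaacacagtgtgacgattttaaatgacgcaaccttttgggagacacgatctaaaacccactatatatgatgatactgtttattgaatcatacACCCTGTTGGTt
A match describes these letters and does not show that a factor was bound.

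Libraries held 9.01 to 11.66 M counts. Levels are given as CPM, each gene's counts relative to the library total after TMM scaling. TAF14 itself had 0.199 to 0.484 CPM in the 3 deletion libraries and 129 to 148 CPM in wild type, 192 to 223 CPM in the W81A strain and 355, 143 and 302 CPM in TAF14 replicates 1, 2 and 3. TAF14 replicate 2 was thus the lowest of its group and within the wild type range. The a mating type of BY4741 was seen in all 12 libraries, with the a-specific receptor gene STE2 at 109 to 833 CPM and its alpha-specific counterpart STE3 at 0.546 to 5.33 CPM. A count of 0 allows up to 3 counts, which is 0.272 to 0.327 CPM depending on the library, a limit that covers counting error only.

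Chromosome XII was higher as a whole in 4 libraries, all 3 of the deletion strain and replicate 2 of the TAF14 strain. For each library the log2 CPM of each gene minus its wild type mean was taken, and the shift of the chromosome is the median over its 500 tested genes minus the median over the 5400 tested nuclear genes elsewhere. This shift was 0.49, 0.50 and 0.56 in the deletion strain and 0.57 in TAF14 replicate 2, which is 1.40- to 1.49-fold. It was 0.03 and 0.02 in TAF14 replicates 1 and 3, 0.01, 0.01 and 0.02 in the W81A strain, and 0.01, 0.00 and 0.00 in wild type. The 4 high libraries did not overlap the other 8, and TAF14 replicate 2 was unlike both libraries of its own group. Set against the other libraries of its group, TAF14 replicate 2 was higher by 0.55, while each deletion library lay within -0.05 to 0.05 of the other members of its group. The medians of the other 15 chromosomes lay between -0.05 and 0.10 in all 12 libraries.

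**Figure D1:**
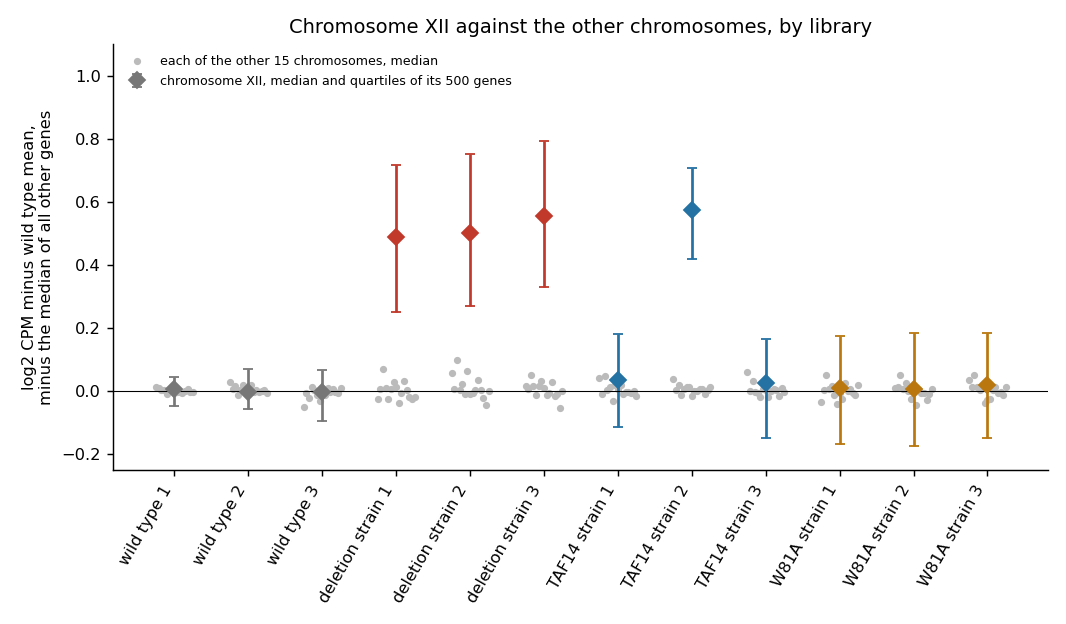
Median of chromosome XII (diamonds, bars from the lower to the upper quartile over its 500 tested genes) and of each of the other 15 chromosomes (grey points) in every library, as log2 CPM minus the wild type mean, minus the median of all nuclear genes off chromosome XII. The diamonds of the 3 deletion libraries and of TAF14 strain 2 sit between 0.49 and 0.57, and those of the other 8 libraries lie near 0, among the other chromosomes.

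Reads of chromosome XII took 20.4 to 21.4% of all counts in these 4 libraries and 15.02 to 17.3% in the other 8. This share is weighted towards rows with many reads, such as PDC1 (mean 14.7 log2 CPM) and TAR1 of the ribosomal DNA region (14.5). Their deletion means were 0.89 and 0.52 above wild type, and TAF14 replicate 2 was 0.27 and 0.05 above the other TAF14 libraries. The share without such rows was not taken. Most genes took part. The wild type mean was exceeded by 87.6%, 89.6% and 91.8% of the 500 genes in deletion replicates 1 to 3 and by 97.0% in TAF14 replicate 2, against 48.0 to 56.4% in the other 8 libraries and 44.4 to 45.2% of genes off chromosome XII in the same 4. When each gene's 4 values were set against its 8 others, 300 of 500 genes on chromosome XII were above all 8 and 0 were below all 8, whereas off the chromosome 102 of 5400 (1.89%) were above and 194 (3.59%) below. The 4 libraries are set together here because they share the shift, so these are descriptions without a test. No DNA was measured, and whether the number of copies of chromosome XII differed between the cultures was not tested. In RNA from a culture a change in every cell and a larger change in some of the cells cannot be told apart.

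Both arms carried the shift. The left arm was at 0.44 to 0.53 in the 4 libraries and at -0.03 to 0.07 in the other 8. On the right arm the values were 0.49 to 0.58 and -0.01 to 0.03. In 11 windows of 100 kb, with 27 to 53 tested genes each, every window of the 4 libraries was higher than every window of the other 8, at 0.34 to 0.66 against -0.10 to 0.13. TAF14 replicate 2 was the most even, from 0.51 to 0.66, and deletion replicate 3 was nearly as even, from 0.46 to 0.62. Deletion replicate 1 ranged from 0.36 to 0.63. Deletion replicate 2 ranged from 0.34 in the last window to 0.62 in the window from 700 to 800 kb.

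**Figure D2:**
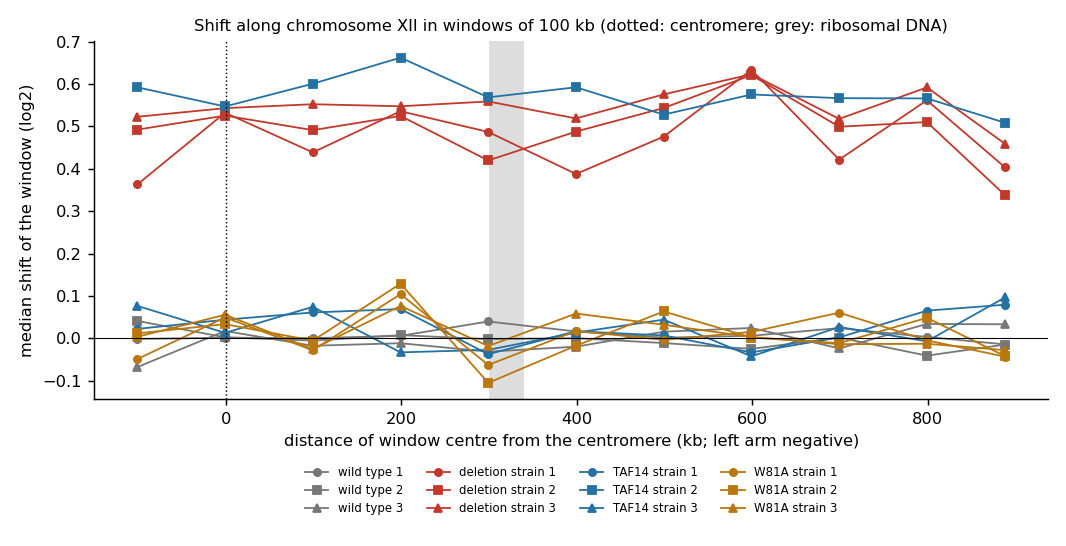
Median shift of the tested genes in successive 100-kb windows along chromosome XII, plotted by the distance of the window's centre from the centromere (dotted line, left arm negative), with the ribosomal DNA in grey and 1 line per library. The lines of the deletion strain (red) and of TAF14 strain 2 (blue squares) run between 0.34 and 0.66 from end to end, and the other 8 stay between -0.10 and 0.13.

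Genes at the landmarks of the chromosome were examined one by one. DNM1, the dynamin-related GTPase of mitochondrial division and the tested gene nearest the centromere on the left arm, had 75.4, 78.4 and 79.2 CPM in wild type libraries, against 126, 128 and 132 in deletion libraries, 83.7, 106 and 74.8 in TAF14 libraries and 85.0, 87.4 and 86.0 in W81A libraries. YLR001C, an uncharacterised gene and its neighbour across the centromere, had 50.2, 55.4 and 53.7 CPM in wild type libraries, against 93.5, 89.9 and 85.9 in deletion libraries, 47.1, 68.9 and 46.9 in TAF14 libraries and 54.9, 58.3 and 56.5 in W81A libraries. At DNM1 and YLR001C the deletion libraries were above all 9 others and TAF14 replicate 2 was above the 8 that remained. In the deletion strain against wild type the log2 fold change was 0.72 ± 0.10 (SE, adjusted p = 6.08e-05) for DNM1 and 0.76 ± 0.12 (SE, adjusted p = 2.01e-04) for YLR001C, by edgeR's quasi-likelihood test with n = 3 libraries in each group, which is the test behind each adjusted p below.

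AYT1, an acetyltransferase gene and the outermost tested and annotated gene of the left arm, had 13.1, 10.4 and 9.90 CPM in wild type libraries, against 16.4, 18.3 and 20.4 in deletion libraries, 14.2, 17.9 and 14.3 in TAF14 libraries and 14.9, 14.7 and 11.8 in W81A libraries. RNH203, a subunit of ribonuclease H2 and the last tested gene before the ribosomal DNA, had 23.4, 25.4 and 24.3 CPM in wild type libraries, against 51.1, 64.4 and 64.1 in deletion libraries, 28.7, 42.1 and 26.0 in TAF14 libraries and 38.8, 41.4 and 39.4 in W81A libraries. Deletion libraries were above all wild type libraries at AYT1 and RNH203, which both rose, by 0.72 ± 0.15 log2 units (SE, adjusted p = 0.00125) and 1.30 ± 0.15 log2 units (SE, adjusted p = 1.75e-05). At the far side of the ribosomal DNA, which spans chrXII:451786-489469, the uncharacterised YLR162W had 5736, 5749 and 2897 CPM in wild type libraries, against 5461, 4965 and 6459 in deletion libraries, 7953, 4357 and 4397 in TAF14 libraries and 4076, 3943 and 5367 in W81A libraries. All 4 groups overlapped there, with 1 wild type library at 2897 CPM, and the difference between deletion strain and wild type was 0.23 ± 0.27 log2 units (SE, adjusted p = 0.496). At the right end, YLR460C, the outermost tested gene, had 5.87, 7.29 and 4.75 CPM in wild type libraries, against 3.06, 4.88 and 3.003 in deletion libraries, 9.11, 4.81 and 9.21 in TAF14 libraries and 1.03, 1.69 and 0.799 in W81A libraries, with the deletion libraries reaching from below the wild type range into it. Its difference was -0.71 ± 0.30 log2 units (SE, adjusted p = 0.0655), which did not pass the test, and passed it without TAF14 replicate 2 (adjusted p = 0.0188).

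The deletion strain was compared with wild type. TAF14 replicate 2, at 143 CPM of TAF14, had a like shift of 0.57, and whether loss of Taf14 raised the chromosome was not tested. On chromosome XII 315 of 500 tested genes rose (63.0%) and 17 fell, where over all 5918 tested genes 24% were called higher and 24.9% lower. Off the chromosome 20.1% rose. The left arm had 34 of 58 genes higher (58.6%) and 0 lower, and the right arm 281 of 442 higher (63.6%) and 17 lower. The shift of the fold changes was 0.51, and the per-library shifts of the groups did not overlap. An exact two-sided permutation test then gives p = 0.1, the smallest that 3 against 3 libraries allow. The shift was known beforehand and each library is set against the wild type mean. The permutation p-values here and below are therefore descriptions and no support for the shift. W81A against wild type gave the same p of 0.1 at a shift of 0.00.

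Against the TAF14 strain the comparison depended on 1 library. With all libraries 185 genes were higher and 37 lower in the deletion strain (24.1% and 24.8% of all genes), with a shift of 0.28 and p = 0.4 in the exact permutation test. Without TAF14 replicate 2 there were 355 higher and 31 lower, with a shift of 0.50. The share over all genes was not taken in that fit, so this gain in calls cannot be ascribed to the chromosome. The W81A strain was lower than the deletion strain at 299 genes and higher at 9 (22.5% and 22.7% of all genes), with a shift of -0.47 and an exact permutation p of 0.1.

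TAF14 replicate 2 also set the comparisons of the TAF14 strain with the unshifted groups. The TAF14 strain was higher than wild type at 82 genes of the chromosome and lower at 6 (8.11% and 8.75% of all genes), and without that library at 65 and 48. The shift was 0.23 with it (exact permutation p = 0.1) and 0.03 without it. Between the W81A and TAF14 strains 8 genes were higher and 130 lower in W81A (15.8% and 17.2% of all genes, shift -0.22, exact permutation p = 0.1), and without the library 90 and 99, with a shift of 0.00. The comparison of W81A with wild type does not contain this library but shares its estimate of the spread with all groups, and without the library it went from 29 higher and 43 lower (12.7% and 14.5% of all genes) to 84 higher and 83 lower. Its shift was 0.00 with and without the library, with an exact permutation p of 0.1. The share over all genes was not taken in any fit without the library.

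To see which genes departed from the rest of their chromosome, the model was fitted again with chromosome XII scaled on its own genes, so that a call is a difference from the typical gene of the chromosome. In the deletion strain against wild type 112 genes then lay above the chromosome and 126 below (23.1% and 23.8% of all genes in that fit). These shares, 22.4% and 25.2%, were close to those off chromosome XII, 22.9% and 23.8%. Of the 315 genes that were higher under common scaling, 187 were not called once the chromosome was its own reference, 112 stayed above and 16 were below. A further 93 genes that had not been called came out below the chromosome, and all 17 that had fallen were below it.

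The same fit gave 128 above and 125 below when the deletion and TAF14 strains were compared (25.1% and 25.2% of all genes). W81A against the deletion strain gave 100 and 118 (20.9% and 22.3%), TAF14 against wild type 44 and 53 (9.38% and 9.07%), W81A against TAF14 82 and 94 (15.8% and 18.6%), and W81A against wild type 67 and 77 (13.7% and 15.9%). For TAF14 against wild type the split turned to 49 above and 39 below with relative log expression scaling.

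The 8 genes closest to the chromosome's own median in the 4 shifted libraries were picked by their values there. Their likeness to the shift in these libraries follows from that choice, and they do not show the spread among members. VPS33, a vacuolar tethering subunit, had 70.8, 67.2 and 77.9 CPM in wild type libraries, against 96.0, 96.2 and 104 in deletion libraries, 67.7, 103 and 69.1 in TAF14 libraries and 72.8, 74.1 and 68.1 in W81A libraries. Its log2 difference from the wild type mean was 0.42, 0.42, 0.53 in the deletion strain and 0.52 in TAF14 replicate 2, and the 4 libraries were above all others. CDC123, an assembly factor of translation initiation factor eIF2, was at 0.38, 0.44, 0.51 in the deletion strain and 0.61 in TAF14 replicate 2, and YSH1, the endonuclease of the cleavage and polyadenylation factor, at 0.48, 0.48, 0.60 in the deletion strain and 0.59 in TAF14 replicate 2. BPT1, YBT1, ADY4, CLF1 and GAG1 completed the closest 8.

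Only a few genes stayed at or below the wild type mean in all 4 shifted libraries. There were 7 of 500 (1.40%), against 1477 of 5400 (27.4%) off the chromosome: BNA5, MLO50, SHH4, YLR124W, YLR152C, YLR434C and YLR460C. BNA5, kynureninase of the pathway from tryptophan to NAD, had 65.8, 74.8 and 69.3 CPM in wild type libraries, against 29.8, 28.5 and 29.6 in deletion libraries, 53.7, 63.0 and 56.1 in TAF14 libraries and 71.8, 65.6 and 80.0 in W81A libraries. Its deletion libraries were below all 9 others, while TAF14 replicate 2 was the highest of the TAF14 strain. In the deletion strain BNA5 fell by 1.26 ± 0.09 log2 units (SE, adjusted p = 2.37e-07), and it lay 0.20 above the mean of its group in TAF14 replicate 2, less than the chromosome's 0.54.

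MLO50 had 36.6, 33.6 and 42.0 CPM in wild type libraries, against 30.8, 33.4 and 33.3 in deletion libraries, 22.5, 33.8 and 26.8 in TAF14 libraries and 20.9, 21.1 and 20.4 in W81A libraries. The deletion libraries lay just below the wild type range and TAF14 replicate 2 just inside it, above the other TAF14 libraries and the W81A strain, which was lowest. The difference of the deletion strain from wild type was -0.20 ± 0.12 log2 units (SE, adjusted p = 0.194) under common scaling and -0.68 ± 0.09 log2 units (SE, adjusted p = 3.89e-05) against the chromosome. YLR152C, uncharacterised, had 47.7, 42.8 and 40.9 CPM in wild type libraries, against 18.8, 16.7 and 19.6 in deletion libraries, 14.03, 26.8 and 12.5 in TAF14 libraries and 16.3, 19.4 and 16.8 in W81A libraries. Every library outside wild type was below it, and TAF14 replicate 2 lay 1.02 above its own group. Of the other 4, SHH4 (a homologue of a succinate dehydrogenase subunit), YLR124W, YLR434C and YLR460C, all had mean levels of at most 1.88 log2 CPM.

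The members nearest to the limit were SHH4, whose highest of the 4 values was -0.04, MLO50 at -0.14 and BNA5 at -0.15, and the nearest beyond it were SST2 at 0.10, TAL1 at 0.11, VID22 at 0.11 and FRE1 at 0.12.

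Taken separately, 31 of 500 genes (6.2%) were at or below the wild type mean in all 3 deletion libraries and 15 (3%) in TAF14 replicate 2. In TAF14 replicate 2 the wild type mean was exceeded by 97.0% of genes on the chromosome and 45.2% off it. The other counts of this paragraph were not taken off the chromosome. A comparison within the TAF14 strain leaves wild type out, and there 19 genes were at or below the mean of replicates 1 and 3 in replicate 2. Both conditions together, the deletion libraries against wild type and TAF14 replicate 2 against its own group, were met by 5 genes, SST2, HAP1, YLR434C, YLR460C and YLR227W-B, which is a retrotransposon gene with near-identical copies elsewhere. This pair of conditions was set after the values were seen. Among the 19 were MHT1 and MMP1, neighbours near the left end that encode the methyltransferase and the permease for S-methylmethionine. MMP1 had 16.6, 21.1 and 12.9 CPM in wild type libraries, against 16.7, 17.3 and 20.1 in deletion libraries, 45.6, 21.2 and 42.1 in TAF14 libraries and 11.2, 11.96 and 12.5 in W81A libraries. TAF14 replicates 1 and 3 were above every other library, and replicate 2 lay near wild type and the deletion strain.

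SST2 had the lowest fold change of the genes named by rank, which are those with a standard name, with 259, 248 and 280 CPM in wild type libraries, against 67.3, 57.2 and 68.1 in deletion libraries, 364, 281 and 368 in TAF14 libraries and 57.0, 57.1 and 65.3 in W81A libraries. The deletion and W81A libraries lay together, far below wild type, and TAF14 replicate 2 was the lowest of its group. The log2 fold change was -2.03 ± 0.11 (SE, adjusted p = 2.04e-08) for the deletion strain and -2.13 ± 0.11 (SE, adjusted p = 6.66e-08) for the W81A strain against wild type. Under common scaling the W81A and deletion strains differed by -0.10 ± 0.11 (SE, adjusted p = 0.473), which did not pass the test. The median gene of the chromosome differed by -0.43 in that comparison, so the likeness at SST2 depends on the scaling. In the W81A libraries the shift of the chromosome was at most 0.02, and SST2 was at a like level there.

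ZRT2, whose upstream matches are shown above, had 203, 211 and 175 CPM in wild type libraries, against 86.3, 105 and 93.1 in deletion libraries, 180, 218 and 196 in TAF14 libraries and 74.1, 76.0 and 74.0 in W81A libraries. W81A libraries were the lowest and did not overlap the deletion strain, which in turn was below wild type. It fell by 1.05 ± 0.09 log2 units (SE, adjusted p = 1.42e-06) in the deletion strain and fell by 1.39 ± 0.09 log2 units (SE, adjusted p = 3.94e-07) in the W81A strain. NFG1, a regulator of filamentous growth, had 13.3, 12.02 and 11.72 CPM in wild type libraries, against 5.02, 5.97 and 5.91 in deletion libraries, 15.4, 15.3 and 13.4 in TAF14 libraries and 6.46, 4.98 and 6.09 in W81A libraries, again with deletion and W81A libraries below the rest. The differences from wild type were -1.13 ± 0.13 log2 units (SE, adjusted p = 1.92e-05) and -1.08 ± 0.13 log2 units (SE, adjusted p = 7.19e-05).

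FRE1, the cell surface reductase for iron and copper uptake, behaved otherwise. It had 297, 296 and 292 CPM in wild type libraries, against 109, 108 and 104 in deletion libraries, 227, 320 and 224 in TAF14 libraries and 210, 247 and 324 in W81A libraries. All 3 deletion libraries were below the other 9, and those of W81A overlapped wild type. FRE1 fell by 1.46 ± 0.15 log2 units (SE, adjusted p = 7.98e-06) in the deletion strain, and W81A was higher than the deletion strain by 1.28 ± 0.15 log2 units (SE, adjusted p = 2.69e-05). TAL1, transaldolase of the pentose phosphate pathway, had 777, 765 and 688 CPM in wild type libraries, against 367, 436 and 430 in deletion libraries, 470, 798 and 455 in TAF14 libraries and 542, 557 and 557 in W81A libraries. TAF14 replicate 2 was above wild type and 0.79 above its own group, whose other libraries were nearly as low as the deletion strain. The deletion strain differed from wild type by -0.85 ± 0.17 log2 units (SE, adjusted p = 0.00107).

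HAP1, the haem-dependent activator of respiratory genes, had 821, 757 and 804 CPM in wild type libraries, against 658, 578 and 577 in deletion libraries, 1326, 912 and 1123 in TAF14 libraries and 597, 602 and 638 in W81A libraries. The deletion and W81A libraries were all below wild type and the TAF14 libraries all above it. Against wild type the log2 fold change was -0.39 ± 0.11 (SE, adjusted p = 0.00895) in the deletion strain, -0.38 ± 0.11 (SE, adjusted p = 0.021) in W81A and 0.50 ± 0.11 (SE, adjusted p = 0.00843) in the TAF14 strain. In TAF14 replicate 2 it was the lowest of its group. The BY strains are known to carry a retrotransposon insertion at the end of HAP1. The remaining genes with a standard name among the 12 lowest departures of the deletion strain, with their log2 fold changes against wild type, were NEJ1, a factor of non-homologous end joining (-0.68), USB1, the nuclease that trims U6 RNA (-0.46), RPL15A (-0.41) and SAM1, an S-adenosylmethionine synthetase (-0.27), each with an adjusted p of at most 0.0132. The call of SAM1 was lost without wild type replicate 1 (adjusted p = 0.0548) or replicate 2 (adjusted p = 0.0534). RPS28B, at -0.26, was not called under common scaling (adjusted p = 0.0984, or 0.0493 without TAF14 replicate 2) and differed from the chromosome by -0.75 ± 0.11 log2 units (SE, adjusted p = 1.20e-04).

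At the upper end the deletion strain rose by more than its chromosome. ACO1, mitochondrial aconitase, had 654, 620 and 614 CPM in wild type libraries, against 3055, 3341 and 3229 in deletion libraries, 1510, 2126 and 1488 in TAF14 libraries and 1916, 2572 and 1823 in W81A libraries. The deletion libraries were highest, and the TAF14 and W81A libraries all exceeded wild type as well. It rose by 2.35 ± 0.15 log2 units (SE, adjusted p = 9.09e-08) in the deletion strain, by 1.44 ± 0.15 log2 units (SE, adjusted p = 4.82e-05) in the TAF14 strain and by 1.74 ± 0.15 log2 units (SE, adjusted p = 3.19e-06) in W81A. AHP1, a thioredoxin peroxidase, had 1917, 1826 and 1731 CPM in wild type libraries, against 7683, 8779 and 7846 in deletion libraries, 2887, 3366 and 2955 in TAF14 libraries and 3880, 3990 and 3816 in W81A libraries, in the same order. Against the chromosome it was higher by 1.67 ± 0.09 log2 units (SE, adjusted p = 1.63e-08) in the deletion strain. AHP1 was also called higher than wild type in the W81A strain, by 1.09 ± 0.08 log2 units (SE, adjusted p = 1.19e-06).

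UBI4, the stress-induced polyubiquitin gene, had 20.8, 22.5 and 17.7 CPM in wild type libraries, against 82.5, 79.6 and 75.9 in deletion libraries, 20.5, 34.4 and 23.3 in TAF14 libraries and 19.7, 18.6 and 21.6 in W81A libraries. The deletion libraries were highest and TAF14 replicate 2 came next, above the 8 others. The fold change was 1.96 ± 0.15 log2 units (SE, adjusted p = 5.13e-07) for the deletion strain, and W81A did not differ from wild type beyond the test's threshold, with -0.03 ± 0.16 log2 units (SE, adjusted p = 0.925). TFS1, an inhibitor of carboxypeptidase Y, rose by 1.95 ± 0.18 log2 units (SE, adjusted p = 2.63e-06) and ATG33, a mitophagy protein, by 1.69 ± 0.14 log2 units (SE, adjusted p = 1.15e-06). Ornithine transaminase (CAR2) rose by 2.29 ± 0.22 log2 units (SE, adjusted p = 3.32e-06). BOP2 had 10.1, 9.55 and 10.6 CPM in wild type libraries, against 27.1, 25.1 and 28.0 in deletion libraries, 10.05, 11.6 and 9.97 in TAF14 libraries and 8.51, 10.6 and 9.09 in W81A libraries. Its deletion libraries were far above the rest, and TAF14 replicate 2 exceeded the mean of its group by only 0.21.

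The other genes with a standard name among the 12 highest, again with log2 fold changes, were MIM2, part of the mitochondrial outer membrane insertase (1.76), ERG27, the 3-keto sterol reductase (1.68), GID11, a substrate receptor of the GID ubiquitin ligase (1.56), CCW12, a cell wall mannoprotein (1.46), and DCS1, a decapping scavenger enzyme (1.44), all called. CCW12 varied within wild type, at 2492, 3156 and 2100 CPM. It had 5565 CPM in TAF14 replicate 2 against 2885 and 2390 CPM in the other TAF14 libraries.

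The 3 deletion libraries and TAF14 replicate 2 differed in how evenly the genes moved. Over 442 genes with a mean of at least 3 log2 CPM, the deletion mean minus wild type had a median of 0.45 and an interquartile range of 0.41, and TAF14 replicate 2 minus the other TAF14 libraries a median of 0.54 and a range of 0.23. Off chromosome XII the corresponding ranges over 4712 genes were 0.42 and 0.23, about the same. In TAF14 replicate 2 the 5th percentile of the chromosome XII genes was 0.17. The values of a gene in the deletion strain and in TAF14 replicate 2 share no library, and across genes they had a Pearson r of 0.32 and a Spearman rho of 0.22 on chromosome XII, and 0.22 and 0.14 elsewhere. These are descriptions across genes, which share their libraries and are not independent.

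**Figure D3:**
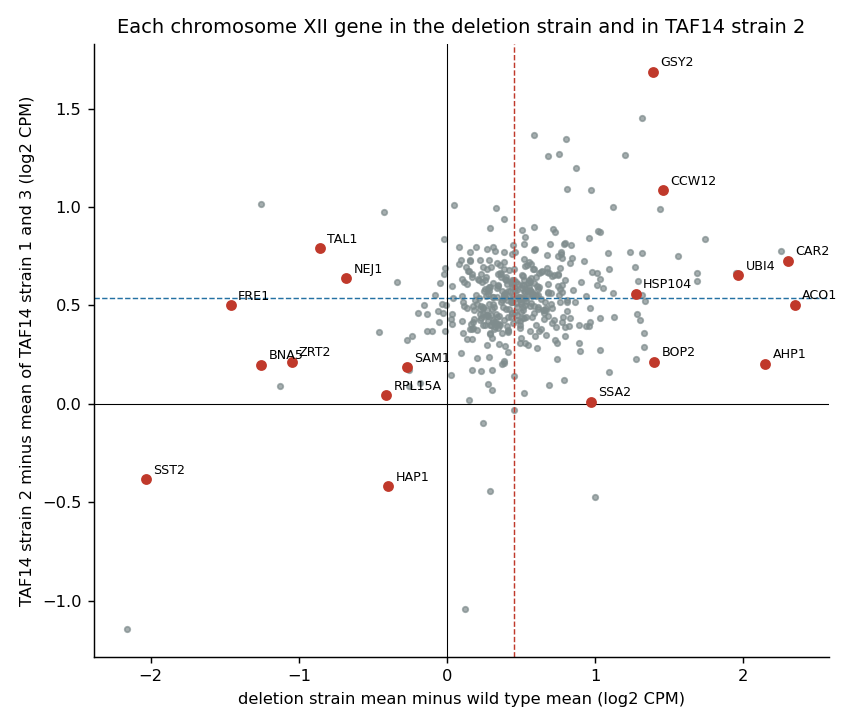
Each of the 442 chromosome XII genes with a mean of at least 3 log2 CPM, by its deletion strain mean minus wild type mean (horizontal, log2) and by TAF14 strain replicate 2 minus the mean of replicates 1 and 3 (vertical, log2), with the medians as dashed lines and some named genes in red. Most genes cluster around 0.45 and 0.54, SST2 and HAP1 lie below 0 on both axes, and SSA2 and BOP2 are high in the deletion strain with 0.01 and 0.21 in TAF14 replicate 2.

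In all 3 deletion libraries the median of the chromosome was lower among genes of high level than among those of low level. In the 167 genes with the lowest levels the deletion medians were 0.47, 0.52 and 0.59, and in the 167 with the highest 0.41, 0.40 and 0.44. TAF14 replicate 2 went the other way, from 0.50 to 0.60. These are values on the log2 scale relative to wild type, before the median off the chromosome is subtracted. Genes off the chromosome were not split by level, so whether the shift itself varied with level was not tested.

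Cytosolic ribosomal protein genes of chromosome XII were near wild type in the deletion strain, and those elsewhere were below it. Of 17 tested members 3 rose (RPL26A, RPS30A and RPL38), 2 fell (RPL15A and RPP0) and 12 were not called. RPS30A has a near copy, RPS30B on chromosome XV, and reads may be shared between them. The call of RPP0, the stalk protein, was lost without wild type replicate 1 or 2 or deletion replicate 1 or 3 (adjusted p of 0.0748, 0.0624, 0.0754 and 0.0554). The list median was 0.08, 0.27 and 0.22 in the deletion libraries and 0.60 in TAF14 replicate 2. The 117 ribosomal protein genes off chromosome XII were at -0.37, -0.18 and -0.27 in the deletion strain and at 0.13 in TAF14 replicate 2. In the deletion strain 74 of these 117 fell and 1 rose, beside 26.9% lower and 20.1% higher over all tested nuclear genes off the chromosome. RPL15A, of the large subunit, had 2107, 2100 and 1874 CPM in wild type libraries, against 1363, 1614 and 1609 in deletion libraries, 2180, 2283 and 2247 in TAF14 libraries and 1690, 1722 and 1798 in W81A libraries. It fell by 0.41 ± 0.08 log2 units (SE, adjusted p = 8.72e-04) in the deletion strain and fell by 0.22 ± 0.08 log2 units (SE, adjusted p = 0.0482) in W81A.

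Each copy was also set against its partner in the same library. Of 14 ribosomal protein pairs with 1 copy on chromosome XII, 13 were tested. The median of the XII copy minus its partner, each relative to wild type, was 0.48, 0.45 and 0.46 in the deletion strain and 0.53 in TAF14 replicate 2, and lay between -0.03 and 0.03 in the other 8 libraries. In 8 of 13 pairs the 4 libraries were above all 8 others, beside 300 of 500 (60%) for single genes of the chromosome. RPS30A and RPS30B, whose reads may be shared, are among these pairs. RPS1A, on chromosome XII, had 1590, 1518 and 1492 CPM in wild type libraries, against 1658, 1832 and 1816 in deletion libraries, 1537, 2331 and 1751 in TAF14 libraries and 1372, 1406 and 1501 in W81A libraries. Its partner RPS1B, on chromosome XIII, had 2431 ± 154 CPM (SD, n = 3) in wild type libraries and 1965 ± 111 in deletion libraries, and it fell by 0.31 ± 0.07 log2 units (SE, adjusted p = 0.00414). RPS1A differed from wild type by 0.21 ± 0.12 log2 units (SE, adjusted p = 0.166), and without TAF14 replicate 2 it passed the test (adjusted p = 0.0187).

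RPL8 was the extreme of these pairs, and there the partner was the called copy. RPL8B, on chromosome XII, had 758, 768 and 638 CPM in wild type libraries, against 801, 1008 and 833 in deletion libraries, 759, 1201 and 857 in TAF14 libraries and 665, 673 and 756 in W81A libraries. RPL8A, on chromosome VIII, had 712, 710 and 679 CPM in wild type libraries, against 189, 206 and 170 in deletion libraries, 744, 296 and 838 in TAF14 libraries and 581, 569 and 633 in W81A libraries. RPL8A was far lower in the deletion libraries and in TAF14 replicate 2 than in any other library, whereas RPL8B was highest in TAF14 replicate 2 and only somewhat higher in the deletion strain than in wild type. RPL8A fell by 1.89 ± 0.27 log2 units (SE, adjusted p = 9.30e-05) in the deletion strain and was at -1.42 from the mean of its group in TAF14 replicate 2, while RPL8B differed by 0.29 ± 0.15 log2 units (SE, adjusted p = 0.121) and passed without TAF14 replicate 2 (adjusted p = 0.0191). How the counting treated reads that match both copies is not given in the sources used here, so both values are uncertain.

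In the RPL22 pair only 1 copy could be counted. RPL22B, on chromosome VI, had 69.6, 66.2 and 73.6 CPM in wild type libraries, against 24.9, 25.6 and 23.7 in deletion libraries, 66.3, 30.5 and 76.1 in TAF14 libraries and 44.9, 50.3 and 43.3 in W81A libraries. It was lowest in the deletion libraries and TAF14 replicate 2, with a fold change of -1.50 ± 0.24 log2 units (SE, adjusted p = 2.36e-04) in the deletion strain. Its partner on chromosome XII, RPL22A, held 0 to 8 counts in every library and could not be tested. YLR062C, a row with no annotation here that overlaps RPL22A, held 19 to 52. How the counting treated reads of overlapping rows is not given in the sources used here, so the low counts do not show that RPL22A was silent. The exceptions among the pairs were RPL15A, RPL37A, RPS28B, RPS25B and RPS22B, where the 4 libraries did not all exceed the others. An annotated non-coding gene overlaps RPS22B. For RPL15A minus RPL15B they were -0.60, -0.48 and -0.51 in the deletion strain and 0.46 in TAF14 replicate 2, with W81A at -0.60 to -0.71.

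**Figure D4:**
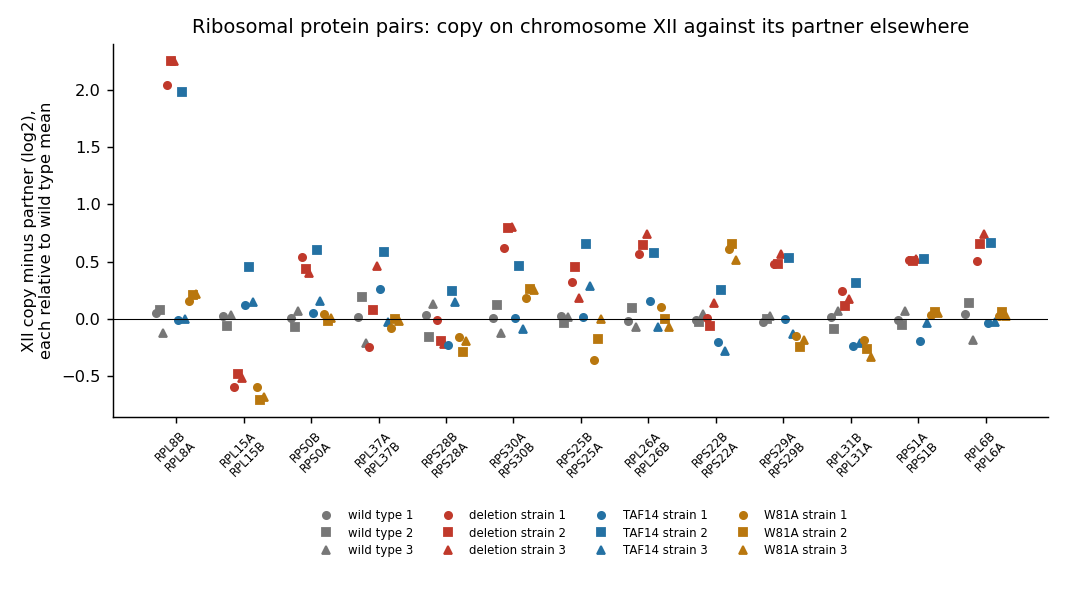
Log2 difference between the copy of each ribosomal protein pair on chromosome XII (upper name) and its partner on another chromosome (lower name), each relative to the wild type mean, in the 12 libraries. The deletion strain (red) and TAF14 strain 2 (blue squares) are above the other libraries in 8 of 13 pairs, reach 1.98 to 2.25 at RPL8B and RPL8A, and split at RPL15A and RPL15B.

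Outside the ribosome 7 pairs were compared, and in 3 the 4 libraries were above all others, beside the same 60% for single genes. They were GSY2 and GSY1 (glycogen synthases), SHM2 and SHM1 (serine hydroxymethyltransferases), and ACS2 and ACS1 (acetyl-CoA synthetases). In the pair of S-adenosylmethionine synthetases both copies were called lower in the deletion strain, and SAM2 fell by more. SAM1 had 825, 832 and 715 CPM in wild type libraries, against 615, 694 and 651 in deletion libraries, 1063, 1231 and 1104 in TAF14 libraries and 807, 727 and 791 in W81A libraries. SAM2, on chromosome IV, had 421, 458 and 421 CPM in wild type libraries, against 135, 136 and 130 in deletion libraries, 380, 178 and 413 in TAF14 libraries and 175, 144 and 142 in W81A libraries. SAM2 was low in the deletion libraries, in TAF14 replicate 2 and also in the W81A strain, where the shift was at most 0.02. It fell by 1.70 ± 0.22 log2 units (SE, adjusted p = 5.40e-05) in the deletion strain and fell by 1.49 ± 0.22 log2 units (SE, adjusted p = 3.45e-04) in W81A. SSA2 and SSA1 are near-identical Hsp70 genes whose reads cannot be told apart with certainty, and SSA2 differed from SSA1 by -0.43 to -0.50 in the deletion strain and -0.17 in TAF14 replicate 2.

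Among 19 tested ribosome assembly factors 12 rose, 0 fell and 7 were not called, and against the chromosome's own scaling 0 were above and 10 below, where 126 of all 500 genes were below. They had medians of 0.29, 0.27 and 0.42 in the deletion libraries and 0.69 in TAF14 replicate 2. DRS1, a nucleolar RNA helicase, had 457, 441 and 447 CPM in wild type libraries, against 629, 600 and 667 in deletion libraries, 554, 721 and 538 in TAF14 libraries and 521, 486 and 494 in W81A libraries, with every deletion library above wild type, and rose by 0.50 ± 0.09 log2 units (SE, adjusted p = 8.57e-04). CBF5, the pseudouridine synthase of box H/ACA particles, had 717, 689 and 661 CPM in wild type libraries, against 630, 685 and 711 in deletion libraries, 733, 1036 and 726 in TAF14 libraries and 571, 537 and 603 in W81A libraries. The deletion strain overlapped wild type, with a difference of -0.03 ± 0.12 log2 units (SE, adjusted p = 0.849), TAF14 replicate 2 was highest, and the departure from the chromosome was -0.51 ± 0.06 log2 units (SE, adjusted p = 1.40e-05). Of 8 translation factors and tRNA synthetases 5 rose and 0 fell. By log2 fold change the synthetases DPS1 (0.57) and FRS1 (0.58) were called, and elongation factor YEF3 (0.10, adjusted p = 0.512) was not.

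Chaperone, ubiquitin and oxidant defence genes had the highest medians of the lists. Of 10 tested members 9 rose and 0 fell, with medians of 1.23, 1.30 and 1.24 in the deletion libraries, but 0.58 in TAF14 replicate 2, near the chromosome's 0.55. HSP104, the disaggregase, had 325, 345 and 322 CPM in wild type libraries, against 782, 833 and 783 in deletion libraries, 194, 298 and 211 in TAF14 libraries and 130, 145 and 130 in W81A libraries. It was highest in the deletion strain and lowest in W81A, and TAF14 replicate 2 was above its group by 0.56. It rose by 1.27 ± 0.12 log2 units (SE, adjusted p = 3.95e-06) in the deletion strain and fell by 1.29 ± 0.13 log2 units (SE, adjusted p = 1.13e-05) in W81A. HSP60, the mitochondrial chaperonin, rose by 1.33 ± 0.10 log2 units (SE, adjusted p = 3.86e-07). SSA2 had 1909, 1692 and 1958 CPM in wild type libraries, against 3650, 3692 and 3523 in deletion libraries, 2457, 2585 and 2680 in TAF14 libraries and 1463, 1416 and 1374 in W81A libraries, with TAF14 replicate 2 inside its own group.

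Carbon metabolism had 8 of 11 members higher and TAL1 lower, and the respiratory list 5 of 9 higher and 0 lower. GSY2 had 78.8, 84.3 and 82.7 CPM in wild type libraries, against 226, 219 and 199 in deletion libraries, 34.9, 108 and 32.0 in TAF14 libraries and 33.7, 34.4 and 29.6 in W81A libraries. TAF14 replicate 2 exceeded the other TAF14 libraries by 1.69, and the deletion strain rose by 1.39 ± 0.32 log2 units (SE, adjusted p = 0.00293). The major pyruvate decarboxylase PDC1 rose by 0.89 ± 0.11 log2 units (SE, adjusted p = 2.36e-05) and the ATP synthase subunit ATP14 by 1.04 ± 0.18 log2 units (SE, adjusted p = 4.25e-04). COX8, a subunit of cytochrome c oxidase, had 42.7, 40.1 and 42.7 CPM in wild type libraries, against 73.6, 71.7 and 72.0 in deletion libraries, 24.3, 45.7 and 28.0 in TAF14 libraries and 36.5, 33.2 and 34.0 in W81A libraries. TAF14 replicates 1 and 3 lay below wild type there and replicate 2 above it.

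Cell wall and polarity genes had 10 of 16 tested members higher and 0 lower. The glucan synthase FKS1 rose by 0.52 ± 0.16 log2 units (SE, adjusted p = 0.0142) and the chitinase CTS1 by 1.21 ± 0.26 log2 units (SE, adjusted p = 0.00194). EXG1, an exoglucanase, had 867, 908 and 885 CPM in wild type libraries, against 1332, 1336 and 1330 in deletion libraries, 657, 1702 and 666 in TAF14 libraries and 1045, 993 and 1102 in W81A libraries. Its highest value was in TAF14 replicate 2, 1.36 above its group, and its difference between deletion strain and wild type was 0.59 ± 0.27 log2 units (SE, adjusted p = 0.0871), and without that library the adjusted p was 4.76e-07. Of 5 mating genes 4 rose, among them the kinase STE11 by 0.75 ± 0.13 log2 units (SE, adjusted p = 5.11e-04) and the GTPase CDC42 by 0.46 ± 0.15 log2 units (SE, adjusted p = 0.0194), and SST2 fell. The call of CDC42 was lost without wild type replicate 3 or deletion replicate 2 or 3 (adjusted p of 0.077, 0.0585 and 0.05003).

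Secretion and vacuole traffic had 16 of 19 members higher and 0 lower. VPS13, a lipid transfer protein, rose by 0.96 ± 0.18 log2 units (SE, adjusted p = 6.41e-04) and the translocon subunit SEC61 by 0.68 ± 0.13 log2 units (SE, adjusted p = 8.62e-04). Cell cycle and chromosome segregation had 10 of 18 higher, including the condensin subunit SMC4, by 0.54 ± 0.14 log2 units (SE, adjusted p = 0.00818), and the septin CDC3, by 0.76 ± 0.14 log2 units (SE, adjusted p = 8.14e-04), and 0 lower. Chromatin genes had 10 of 12 higher and 0 lower. BDF1, a bromodomain protein associated with TFIID, had 196, 203 and 199 CPM in wild type libraries, against 417, 433 and 446 in deletion libraries, 193, 284 and 191 in TAF14 libraries and 287, 297 and 288 in W81A libraries. The deletion libraries were above all others, W81A and TAF14 replicate 2 were next, and the rise was 1.12 ± 0.12 log2 units (SE, adjusted p = 8.33e-06) in the deletion strain and 0.55 ± 0.12 log2 units (SE, adjusted p = 0.00379) in W81A. The RSC subunits RSC2 (log2 fold change 0.04, adjusted p = 0.807) and RSC58 were not called.

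Amino acid, nucleotide and sulfur metabolism had 11 of 17 tested members higher and 2 lower, BNA5 and SAM1. ILV5 of branched-chain synthesis rose by 0.97 ± 0.12 log2 units (SE, adjusted p = 3.29e-05). MET17, the sulfhydrylase gene that is deleted in BY4741, had 0 counts in all 12 libraries. Sterol and lipid genes had 8 of 12 higher and 0 lower. ERG27 was among the higher, and the elongase ELO3 was not called, at 0.10 ± 0.13 log2 units (SE, adjusted p = 0.54). Transporters had 11 of 19 higher, among them TPO1 for polyamines, by 1.27 ± 0.13 log2 units (SE, adjusted p = 8.21e-06), and 2 lower, FRE1 and ZRT2. Of the subtelomeric PAU and YRF1 families only PAU17 could be tested, which differed by -0.25 ± 0.28 log2 units (SE, adjusted p = 0.49), and none of the 4 asparaginase copies beside the ribosomal DNA could be. All lists were chosen with earlier results of these data known, and their counts stand beside 63.0% higher and 17 of 500 lower over the chromosome.

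**Figure D5:**
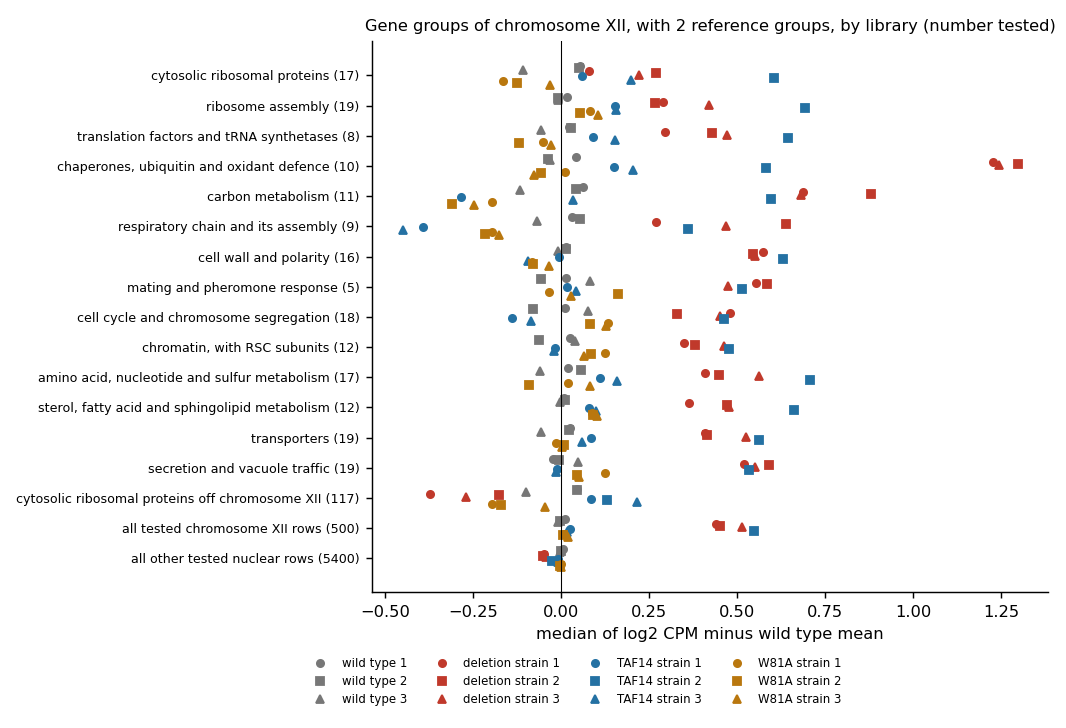
Median of log2 CPM minus the wild type mean for groups of chromosome XII genes (number tested in brackets), with ribosomal proteins off the chromosome and all genes on and off it as references, in each library. Chaperone genes reach 1.23 to 1.30 in the deletion strain (red), ribosomal proteins 0.08 to 0.27, and TAF14 strain 2 (blue squares) lies between 0.36 and 0.71 in every group of the chromosome with more than 1 tested gene.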

How the data were processed

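RNA-seq of total RNA depleted of ribosomal RNA (Ribo-Zero Gold, stranded TruSeq libraries, per the labels' protocols) was deposited as raw counts of reads per gene, which the authors made with TopHat2 2.0.14, SAMtools 0.1.19 and HTSeq 0.6.1p1 on sacCer3, and used with DESeq2 1.8.1, per the submitters' processing notes. The strand setting, the annotation and the handling of multiply mapped reads are not given in the sources used here.

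Counts of 12 libraries were fitted in 1 model of 4 groups with edgeR 4.0.16 (R 4.3.3, limma 3.58.1; quasi-likelihood test, TMM scaling, filterByExpr), which left 5918 of 6692 rows. A gene was called at a Benjamini-Hochberg adjusted p below 0.05 over all tested rows. In a second fit chromosome XII rows took TMM factors from their own rows, so that a call is a departure from the chromosome. log2 CPM used a prior count of 0.5. The biological coefficient of variation was 8.59%, with 8 residual degrees of freedom. The procedure was tested on simulated data. DESeq2 1.42.0, other scalings, filters and left-out libraries were alternatives. Genes were placed on R64, near copies searched with blastn 2.17.0+, and sequences taken from its RefSeq files with Python 3.11.15 and Biopython 1.88. Figures used matplotlib 3.10.9.

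Genes were named by rank among called departures (12 highest and 12 lowest fold changes of the deletion strain against wild type, with a standard name, a mean of at least 3 log2 CPM and groups that did not overlap on the chromosome's own scale), by escape from the shift, by level within each list (4 per list), by position and by closeness to the median. A few named outside the rule were chosen after their values were seen, such as YLR152C, MMP1 and RPL38. Members and lists were chosen with earlier results of these data known.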

Additional observations from a re-analysis of the deposited data

How the results depend on the processing

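For the named genes of the deletion strain against wild type, 2281 values under alternatives kept their direction and side of the threshold, 44 gained a call, 73 lost it and 11 changed sign, all in 4 genes that were not called. RPL31B was at 0.00308 with relative log expression scaling, 0.0319 with TMM from rows off chromosome XII and 0.00309 with DESeq2, and CBF5 at 0.0107 with TMM from rows off chromosome XII. With 1 library left out RPL31B ranged from -0.0507 to 0.0252, CBF5 from -0.0685 to 0.0178, RPS28A from -0.239 to 0.0383 and YLR162W from -0.0292 to 0.382. With the 6 libraries of a comparison alone, the TAF14 strain differed from wild type at 30 chromosome XII genes (29 higher, 1 lower) and departed from the chromosome at 56, and W81A differed from wild type at 171 (89 higher, 82 lower). The mean over rows in place of the median gave shifts of 0.0105 in wild type replicate 2, -0.0141 in wild type replicate 3 and 0.0125 in W81A replicate 3. The genes at or below wild type in all 4 shifted libraries numbered 3 with a filter of at least 10 CPM in 3 libraries, 4 at or below -0.25 and 24 at or below 0.5 times the chromosome's median.

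With 1 library left out, called genes ranged from 273 to 404 for the deletion strain against wild type, 167 to 386 against the TAF14 strain, 238 to 399 for W81A against the deletion strain, 46 to 113 for TAF14 against wild type, 94 to 189 for W81A against TAF14 and 46 to 167 for W81A against wild type. The highest of each range was without TAF14 replicate 2. TAF14 against wild type gave 46, 55 and 52 without wild type replicates 1, 2 and 3, and W81A against wild type gave 46 without wild type replicate 1 or W81A replicate 1. Departures of TAF14 from wild type ranged from 58 to 115, with 58, 61, 60 and 60 without wild type replicates 1 and 3 and TAF14 replicates 1 and 3. The shift of W81A against wild type ranged from 0.00158 to 0.0194. The share over all genes was not taken in these fits, and the cause of these movements was not tested.

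Deviations of same-numbered libraries of different groups had correlations of -0.192 to 0.287, against -0.367 to 0.408 for different numbers. These overlapping ranges cannot tell whether libraries with the same number shared a culture or day. With the replicate block 337, 229, 309, 83, 133 and 71 genes were called, in the order of the comparisons in the report, against 332, 222, 308, 88, 138 and 72 without it. Low counts left 86 rows untested, 39 of them at 0 in every library, reads may be shared between near-identical copies, and groups held 3 libraries.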

Other observations

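A few genes of other chromosomes followed the same order of libraries as chromosome XII. Of 5400 tested genes off the chromosome, 102 were above and 194 below all 8 other libraries in each of the 3 deletion libraries and TAF14 replicate 2. These were picked by their values, and the 3 with the widest gap in each direction are given, as log2 CPM minus the wild type mean. Those below were the ribosomal protein genes RPL8A and RPL22B and BBP1, a spindle pole body gene. BBP1 was at -0.58, -0.56 and -0.73 in the deletion strain and -0.43 in TAF14 replicate 2, and no lower than -0.05 elsewhere. Those above all encode cell wall proteins. CWP1 was at 0.94, 1.06 and 1.16 in the deletion strain, 1.68 in TAF14 replicate 2 and -0.86 to 0.08 in the other 8 libraries. HSP150 was at 0.92, 1.04 and 0.90, and at 0.44 in TAF14 replicate 2. PIR3 was at 0.88, 0.81 and 0.43, and at 0.64 in TAF14 replicate 2.

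Rows named for the region of the ribosomal DNA varied between libraries of 1 group. YLR154W-A, which had no match in the annotation, had 4.93, 6.06 and 0.404 CPM in wild type libraries, against 6.88, 6.57 and 26.3 in deletion libraries, 5.13, 2.36 and 1.95 in TAF14 libraries and 2.36, 0.847 and 3.19 in W81A libraries. Deletion replicate 3 was the highest library and wild type replicate 3 the lowest. YLR154C-G, which overlaps annotated ribosomal RNA genes, had 352, 356 and 188 CPM in wild type libraries, against 520, 310 and 375 in deletion libraries, 478, 289 and 182 in TAF14 libraries and 158, 167 and 294 in W81A libraries, and its groups overlapped. RNA was depleted of ribosomal RNA before sequencing, and whether that step differed between libraries was not tested.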
